A study of Mus musculus with 15 samples.

Results

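The genes described here are 7 genes of iron handling in mouse islet cells, Slc40a1, Tfrc, Slc11a2, Fth1, Ftl1, Hfe and Hamp, of 38283 genes in the expression table. They were taken by gene symbol. The list was drawn up because Slc40a1 was low in delta cells, so that every value of Slc40a1 in delta cells against the other cell types is a description and carries no test. A gene entered the tests if its mean was above 1 FPKM, which scales the fragments of a gene by the length of its transcript and by the mapped reads of the library, in at least 1 cell type, and 6 of the 7 genes passed. Hamp did not pass.

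RNA was sequenced from fluorescence-sorted islet cells of C57BL/6 mice. Glu-Venus mice, in which Venus is driven by the proglucagon promoter, gave 5 samples of alpha cells and 4 of beta cells, the latter being Venus-negative cells picked by light scatter and by their autofluorescence. The 6 samples of delta cells were sorted from Sst-CreXROSA26EYFP/EYFP mice, in which Cre is driven by the somatostatin promoter, so that the delta cell identity and the mouse line cannot be told apart. Each sample pooled islets of several mice, no treatment was given, and ages are not given in the sources used here. Hormone genes followed the labels, with exceptions among the other markers: Gcg, which encodes glucagon, was at 184426 to 344947 FPKM in alpha cells and at most 1817 FPKM in the others, the summed level of 8 beta cell markers, led by Ins1 and Ins2, was 141665 to 789705 FPKM in beta cells and at most 14840 FPKM in the others, and Sst was at 101492 to 266276 FPKM in delta cells and at most 2427 FPKM in the others. Of the other delta cell markers, Hhex was at 42.1 to 93.2 FPKM in delta cells and at most 2.55 FPKM elsewhere, but Rbp4 overlapped between delta and alpha cells (means of 1426 and 655 FPKM) and Lepr was lower in delta cells (mean 0.0544 FPKM) than in beta cells (0.341 FPKM). The alpha cell marker Slc38a5 also overlapped between alpha and delta cells (means of 36.0 and 8.75 FPKM).

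Libraries differed in ways that the cell types did not explain. Between 14761 and 18559 genes had a value above 0 in a library. The depth could be read from the smallest steps in the values in 6 libraries and was about 7600000 to 30700000 reads, while in the other 9 it is unknown. In 6 libraries (alpha 1, alpha 2, alpha 3, beta 2, delta 1 and delta 2) the FPKM of 84 ribosomal protein genes summed to 66048 or more, and in the other 9 to 39064 or less. Among beta cells, beta 2 had the highest median-ratio size factor of all libraries (1.73) and beta 3 the lowest (0.457), and results that moved most with either are given without it too.

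Cells take up iron bound to transferrin through the transferrin receptor (Tfrc), move it out of the endosome through the divalent metal transporter DMT1 (Slc11a2), store it in ferritin shells built of heavy (Fth1) and light (Ftl1) chains, and release it through ferroportin (Slc40a1), the known cellular iron exporter of mammals. The liver hormone hepcidin (Hamp) binds ferroportin and has it degraded, and HFE is a membrane protein that binds the transferrin receptor and takes part in setting hepcidin. Iron-poor cells hold iron regulatory proteins on iron-responsive elements, short RNA hairpins that block translation when they lie before the coding sequence and stabilise the message when they lie after it, so that the level of a message and of its protein need not move together.

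The hairpins are shown because 4 of the 7 genes hold the pattern searched for, and the choice of genes did not use it. The pattern is that of a known element of iron genes, so that its matches here are a description and no independent finding. The shares over all genes stand as background. Annotated transcripts were searched on the transcript strand for a pattern of 17 letters, a C, 5 letters, the loop CAGTGN and 5 letters that pair with the first 5 as A-T, G-C or G-T. At least 1 annotated transcript held the pattern in 4 of the 7 genes, against 294 of 21901 protein-coding genes (1.34%) in the whole annotation and 1 of 71 other genes of iron handling (Alas2, the haem synthesis enzyme of red cell precursors). In Slc40a1 (1 of 4 coding transcripts), Fth1 (4 of 5) and Ftl1 (1 of 2) it lay in the 5′ untranslated region, where 31 genes (0.142%) had it, and in Tfrc (1 of 3 coding transcripts, with 4 copies) in the 3′ untranslated region, where 130 genes (0.594%) had it. The windows below are from the GENCODE M21 annotation of GRCm38, 5′ to 3′ on the transcript strand, with the loop in capitals.
Slc40a1, chr1:45925465-45925493, minus strand: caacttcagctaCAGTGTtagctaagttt
Fth1, chr19:9982732-9982760, plus strand: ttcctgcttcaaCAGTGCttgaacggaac
Ftl1, chr7:45459779-45459807, minus strand: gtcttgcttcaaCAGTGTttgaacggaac
Tfrc, chr16:32631219-32631247, plus strand: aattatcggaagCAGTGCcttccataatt
Tfrc, chr16:32631598-32631626, plus strand: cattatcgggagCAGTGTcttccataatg
Tfrc, chr16:32631663-32631691, plus strand: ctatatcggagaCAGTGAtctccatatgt
Tfrc, chr16:32631710-32631738, plus strand: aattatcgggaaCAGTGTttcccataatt

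The elements of the ferritin chains were alike: over the 17 letters, counted from 1 at the first C, the Ftl1 element differed from that of Fth1 by C12T alone, the last base of the loop. None of 6 coding transcripts of Slc11a2, 4 of Hfe and 1 of Hamp held these letters, which says nothing of other forms of the element. A match is a pattern in the annotated sequence, and neither protein binding nor translation was measured here.

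Ferroportin mRNA was present in every alpha and beta cell sample and lay below 1 FPKM in every delta cell sample. Slc40a1 (chromosome 1, 45908068 to 45926523, minus strand, 8 annotated transcripts) was at 17.04, 19.3, 8.28, 7.97 and 11.02 FPKM in alpha 1 to 5. In beta 1 to 4 it was at 7.07, 22.2, 3.39 and 4.72 FPKM. In the 6 delta cell samples it ran from 0.248 FPKM through a median of 0.470 FPKM to 0.697 FPKM. The highest delta cell sample was below the lowest beta cell sample, beta 3, and no alpha or beta cell sample overlapped the delta cell samples. In samples of many cells, fewer cells that hold a message and less message in each cell cannot be told apart.

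**Figure D1:**
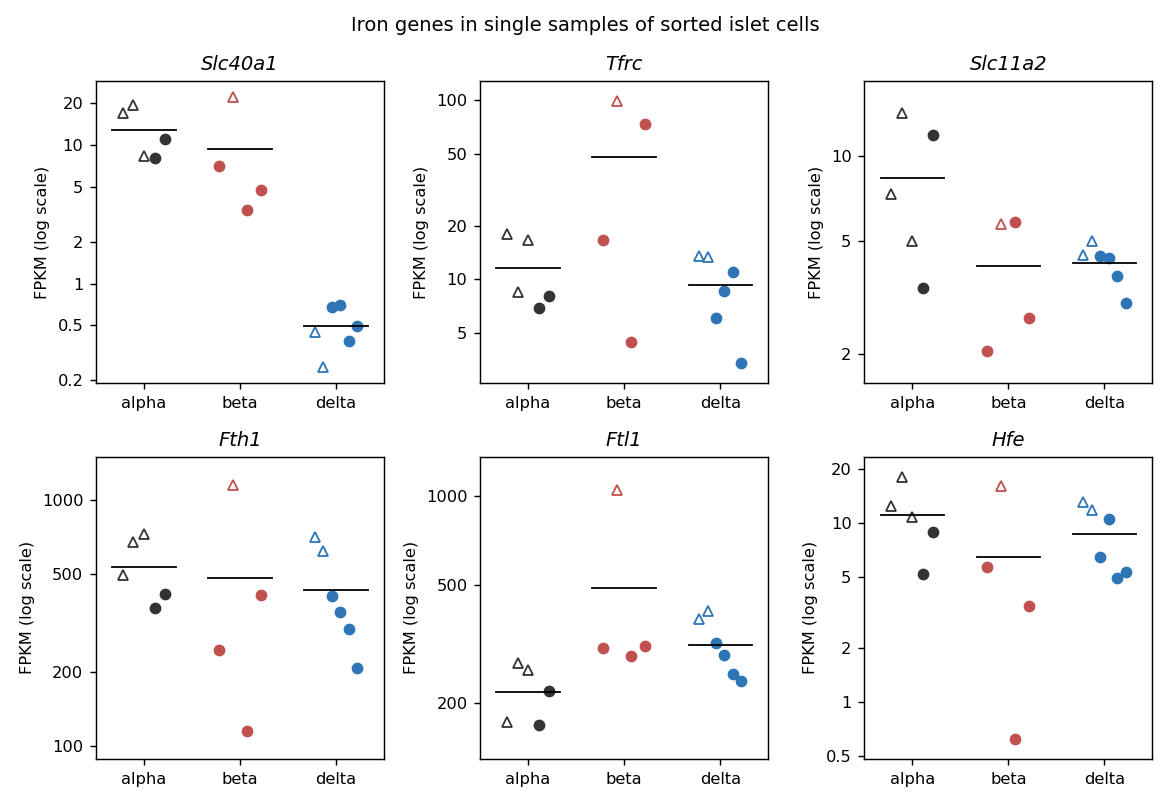
FPKM of the 6 tested genes in the 15 samples (vertical axes in FPKM, logarithmic), with a horizontal line at the mean of each cell type, open triangles for the 6 libraries with the higher ribosomal protein sum and filled circles for the other 9. Slc40a1 lies between 0.248 and 0.697 FPKM in delta cells against 3.39 to 22.2 FPKM in the others, whereas each of the other genes overlaps between delta cells and both other cell types.

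The mean of Slc40a1 was 12.7 ± 5.18 FPKM in alpha cells (SD, n = 5), 9.34 ± 8.70 FPKM in beta cells (n = 4) and 0.491 ± 0.173 FPKM in delta cells (n = 6). In alpha cells 3827 genes had a higher mean, in beta cells 4776 and in delta cells 14381. The alpha and beta cell means, neighbours in the order, differed by less than their spread. Between delta and alpha cells the ratio of the means was 25.9-fold, and between delta and beta cells 19.0-fold. Without beta 2 the beta cell mean was 5.06 FPKM, the ratio to delta cells 10.3-fold and the log2 difference between delta and beta cells -1.99. On the scale of log2(FPKM + 1), which understates differences of low genes, delta cells differed from alpha cells by -3.13, with 57 of 14405 tested genes at a more negative value, and from beta cells by -2.48, with 150 genes at a more negative value. Samples that did not overlap, with delta cells the lower, were seen for 1.67% of tested genes against alpha cells and 2.62% against beta cells. These shares stand as background, since the low level in delta cells chose the gene.

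No delta cell sample overlapped the others, so that any split of the libraries must show the gap. The levels in both sets of libraries are given as a description. Where the ribosomal protein sum was high, Slc40a1 averaged 14.9 FPKM in 3 alpha samples, 22.2 FPKM in the single beta sample and 0.349 FPKM in 2 delta samples. Where it was low, the means were 9.49 FPKM in 2 alpha samples, 5.06 FPKM in 3 beta samples and 0.562 FPKM in 4 delta samples. With libraries rescaled by size factors, the means were 12.02 ± 3.71, 8.85 ± 3.63 and 0.429 ± 0.156 FPKM in alpha, beta and delta cells. In the libraries whose depth could be read, about 17.8 reads lay behind the value in delta 1, 9.2 in delta 2, 77.7 in delta 3 and 66.0 in delta 4, against about 547 in alpha 2 and 1097 in alpha 5. The delta cell values were therefore low but rested on sequenced reads and not on a 0. Delta cell samples also held Ins2 (mean 5768 FPKM, against 295241 FPKM in beta cells) and Gcg (mean 515 FPKM, against 273077 FPKM in alpha cells). The part of alpha and beta cells in these Slc40a1 reads was not tested.

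Other cell types that a sort can carry along differed between the groups too. The summed level of 9 acinar markers was 8.17 to 82.3 FPKM in alpha cells, 0.0283 to 12.7 FPKM in beta cells and 90.8 to 585 FPKM in delta cells. Macrophages are rich in ferroportin, and 12 macrophage markers summed to 8.96 to 29.7 FPKM in alpha cells, 1.42 to 22.1 FPKM in beta cells and 21.7 to 44.8 FPKM in delta cells. Most of that sum was C1qa, a complement component, with means of 17.2, 8.19 and 24.4 FPKM, while the leukocyte marker Ptprc was at 0 in all alpha samples and at most 0.0581 FPKM in delta cells. The median macrophage sum was 18.1, 6.33 and 25.5 FPKM in alpha, beta and delta cells, and, resting mostly on C1qa, it is no measure of macrophage content. The part of macrophages and acinar cells in the results was not tested.

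The choice of Slc40a1 did not use its levels in beta against alpha cells, which differed by -0.65 on the log2 scale (SE 0.422, 95% interval -1.54 to 0.25, limma adjusted p = 0.382). The samples overlapped. Without beta 2, the highest of all samples, the difference was -1.14 (adjusted p = 0.0390), so that 1 library decided whether the comparison passed.

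The 5 tested genes whose pattern over the 15 samples was most like that of Slc40a1, by the root mean square difference of mean-centred log2 values, were Clic4 (0.509), Slc38a4 (0.527), Cadps (0.622), Ell2 (0.664) and AC116511.1 (0.704). The values of Slc40a1 itself spread by 1.52 on this measure. Clic4 encodes a chloride intracellular channel protein and had means of 14.4, 12.1 and 1.96 FPKM in alpha, beta and delta cells. Slc38a4, an amino acid transporter, had means of 69.8, 63.6 and 11.3 FPKM. Cadps, which primes dense-core vesicles for release, had means of 16.8, 18.8 and 2.62 FPKM, and Ell2, a transcription elongation factor, 13.9, 18.1 and 2.61 FPKM. The highest delta cell sample lay below the lowest alpha and beta cell samples for each of the 5, which were chosen for that likeness.

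Levels of the transferrin receptor varied widely among beta cells. Tfrc (chromosome 16, 32608920 to 32632794, plus strand, 7 annotated transcripts) was at 17.9, 8.55, 16.7, 6.91 and 8.03 FPKM in alpha 1 to 5. The beta cell samples were at 16.6, 98.6, 4.48 and 74.1 FPKM. Delta cell samples ran from 3.42 FPKM through a median of 9.77 FPKM to 13.5 FPKM. Beta 2 and beta 4 stood above all other samples, beta 1 lay within the alpha cell range and beta 3 below it.

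The mean of Tfrc was 11.6 ± 5.23 FPKM in alpha cells (SD, n = 5), 48.5 ± 45.2 FPKM in beta cells (n = 4) and 9.33 ± 4.06 FPKM in delta cells (n = 6). The beta cell mean was 4.17-fold the alpha cell mean, with a log2 difference of 1.31 (SE 0.693, 95% interval -0.17 to 2.78, limma adjusted p = 0.279). Against beta cells, delta cells differed by -1.61 (SE 0.667, 95% interval -3.03 to -0.20, limma adjusted p = 0.122), and against alpha cells by -0.31 (SE 0.626, adjusted p = 0.876). Neither beta cell comparison passed with all libraries on the deposited scale and no covariate. With the library set as covariate, the one between delta and beta cells passed. Without beta 2 the differences were 0.71 between beta and alpha cells and -1.02 between delta and beta cells. Without beta 3, whose size factor was the lowest, beta cells were higher than alpha cells by 2.11 (limma adjusted p = 0.0354) and delta cells lower than beta cells by 2.42 on the log2 scale (adjusted p = 0.00960). With size factors the delta against beta cell difference was -1.98 (limma adjusted p = 0.00997), and the means were 11.4 ± 5.38, 40.8 ± 28.3 and 7.80 ± 2.91 FPKM in alpha, beta and delta cells.

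DMT1 mRNA was present in every sample of the 3 cell types. Slc11a2 (chromosome 15, 100387898 to 100425072, minus strand, 8 annotated transcripts) was at 7.33, 14.1, 5.02, 3.41 and 11.8 FPKM in alpha 1 to 5. In beta 1 to 4 it was at 2.05, 5.73, 5.84 and 2.67 FPKM. The delta cell samples lay close together, from 3.03 FPKM through a median of 4.38 FPKM to 5.01 FPKM. Alpha cells held both the highest samples and some as low as the other cell types, so that all groups overlapped.

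The mean of Slc11a2 was 8.34 ± 4.52 FPKM in alpha cells (SD, n = 5), 4.07 ± 1.99 FPKM in beta cells (n = 4) and 4.18 ± 0.686 FPKM in delta cells (n = 6). The log2 difference was -0.83 between beta and alpha cells (SE 0.383, 95% interval -1.64 to -0.01, limma adjusted p = 0.210) and -0.72 between delta and alpha cells (SE 0.346, 95% interval -1.45 to 0.02, adjusted p = 0.312). Delta and beta cells differed by 0.11 (SE 0.368, limma adjusted p = 0.882), and the sign of that difference turned with size factors (-0.25) and without beta 1 (-0.11) or beta 4 (-0.016). A gene model on the opposite strand that overlaps Slc11a2, Gm5475, was at 0 to 0.214 FPKM, and the amplified libraries do not mark strand.

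The ferritin chains were among the most abundant messages of every cell type. Fth1 (chromosome 19, 9980598 to 9985098, plus strand, 9 annotated transcripts), whose protein carries the ferroxidase site, was at 497, 674, 727, 365 and 415 FPKM in alpha 1 to 5. It was at 247, 1154, 115 and 410.2 FPKM in beta 1 to 4. Delta cell samples ran from 208 FPKM through a median of 378 FPKM to 707 FPKM. Beta cells held both the highest sample, beta 2, and the lowest, beta 3, which are also the libraries with the highest and the lowest size factors.

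The mean of Fth1 was 536 ± 159 FPKM in alpha cells (SD, n = 5), 482 ± 464 FPKM in beta cells (n = 4) and 432 ± 193 FPKM in delta cells (n = 6), with 151, 106 and 119 genes at a higher mean. After rescaling by size factors the means were 518 ± 143, 421 ± 175 and 360.5 ± 127 FPKM. The log2 difference was -0.60 between beta and alpha cells (SE 0.581, 95% interval -1.83 to 0.63, limma adjusted p = 0.574), and -1.18 without beta 2 or -0.080 without beta 3. It was -0.38 between delta and alpha cells (SE 0.524, limma adjusted p = 0.788) and 0.22 between delta and beta cells (SE 0.559, adjusted p = 0.839), where the log2 ratio of the mean FPKM had the opposite sign (-0.16). Each difference was smaller than the spread between samples, and each changed sign under at least 1 other scaling, the last also without beta 3 (-0.30).

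Ftl1 was higher in every beta cell sample than in any alpha cell sample. The gene (chromosome 7, 45457944 to 45459884, minus strand, 6 annotated transcripts), which encodes the light chain that helps to form the mineral core, was at 173, 273, 259, 168 and 219 FPKM in alpha 1 to 5. The beta cell samples were at 307, 1043, 288 and 312 FPKM. In delta cells it ran from 237 FPKM through a median of 305 FPKM to 408 FPKM. Without overlap and with beta cells the higher, the same held for 3.05% of tested genes, and delta cell samples overlapped both other groups.

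The mean of Ftl1 was 218 ± 48.0 FPKM in alpha cells (SD, n = 5), 488 ± 371 FPKM in beta cells (n = 4) and 315 ± 69.6 FPKM in delta cells (n = 6), with 286, 104 and 173 genes at a higher mean. Beta cells differed from alpha cells by 0.94 on the log2 scale (SE 0.428, 95% interval 0.04 to 1.85), which did not pass (limma adjusted p = 0.2001). Without beta 2, which stood far above the other beta cell samples, the difference was 0.50 (limma adjusted p = 0.354). With all libraries and size factors it was 1.20 (limma adjusted p = 0.00881), with quantile normalization 1.37 (adjusted p = 0.00124) and with the library set as a covariate 1.19 (adjusted p = 0.0263). The rescaled means were 211 ± 36.9 FPKM in alpha cells, 499 ± 152 FPKM in beta cells and 269 ± 39.6 FPKM in delta cells. Delta cells differed from alpha cells by 0.52 (SE 0.386, 95% interval -0.29 to 1.34, limma adjusted p = 0.571) and from beta cells by -0.42 (SE 0.411, adjusted p = 0.545), or by 0.029 without beta 2.

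**Figure D2:**
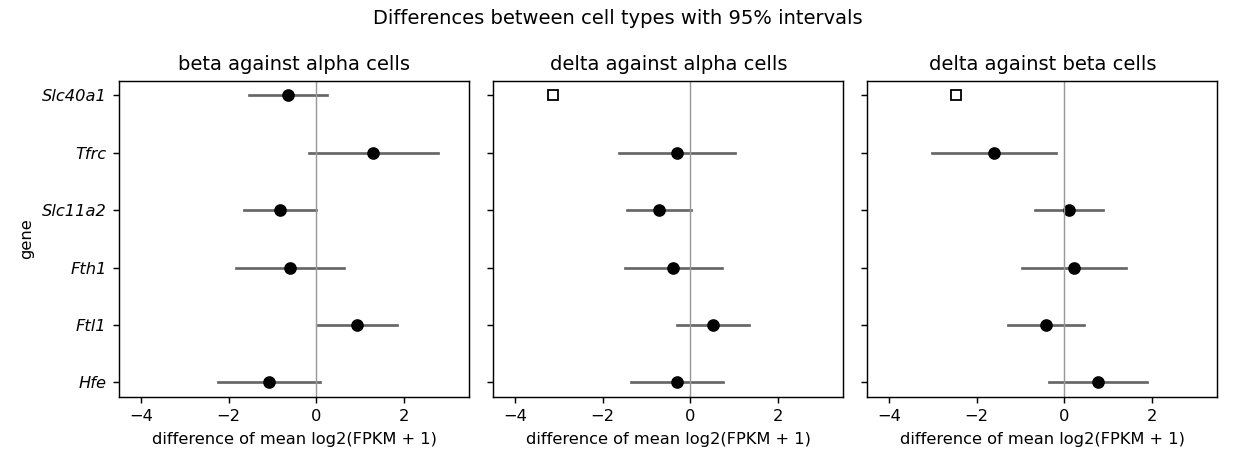
Log2 differences of the genes between cell types (horizontal axis, log2(FPKM + 1) scale), with filled points and 95% intervals for the tested values and open squares, without intervals, for Slc40a1 in delta cells, which is a description. The open squares lie at -3.13 and -2.48, and the tested values lie between -1.61 and 1.31.

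An annotated microRNA gene, AC151602.1 (Gm22133 in GENCODE, chromosome 7, 45458089 to 45458197, minus strand), lies inside an exon of Ftl1 on the same strand, and reads of the pair cannot be told apart. It was listed at 1234 to 2708 FPKM in alpha cells, 2985 to 4507 FPKM in beta cells and 1585 to 3519 FPKM in delta cells. Beta cells differed from alpha cells in it by 0.99 on the log2 scale (SE 0.395, limma adjusted p = 0.144), close to that of Ftl1. Ferritin has many processed copies in the genome, and of those in the table Ftl1-ps1 was at 0.111 to 1.28 FPKM, Ftl1-ps2 at 0 to 0.431 FPKM and Fth-ps2 at 0 to 6.60 FPKM, while Ftl2 was listed at 0 in all samples. How reads that fit several copies were shared out is not given in the sources used here.

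The proportion of heavy to light chain message differed in order between the cell types. Within a sample this ratio does not depend on how libraries are scaled to each other. It can depend on how reads were shared between Ftl1 and AC151602.1, the gene inside its exon, which was not tested. The ratio was 2.88, 2.47, 2.81, 2.17 and 1.89 in alpha 1 to 5 and 0.803, 1.11, 0.399 and 1.31 in beta 1 to 4. In the delta cell samples it ran from 0.880 to 1.84. Every alpha cell sample was above every beta and delta cell sample, although alpha 5 (1.89) and delta 1 (1.84) were close. For alpha cells the log2 ratio averaged 1.27 ± 0.256 (SD, n = 5), for beta cells -0.28 ± 0.759 (n = 4) and for delta cells 0.36 ± 0.360 (n = 6), and beta and delta cells overlapped. The beta cell mean rested on single libraries, being 0.075 without beta 3 and -0.50 without beta 4. The ratio moved with the library set: in alpha cells it was 2.47 to 2.88 in the 3 libraries with the higher ribosomal protein sum and 1.89 to 2.17 in the other 2, and in delta cells 1.52 to 1.84 in 2 libraries and 0.880 to 1.28 in the other 4. Within each set every alpha cell sample was above every delta and beta cell sample (beta 2 at 1.11 in the higher set, 0.399 to 1.31 in the other). The ratio is given as a description with no test, and the part of the library set in it was not tested.

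**Figure D3:**
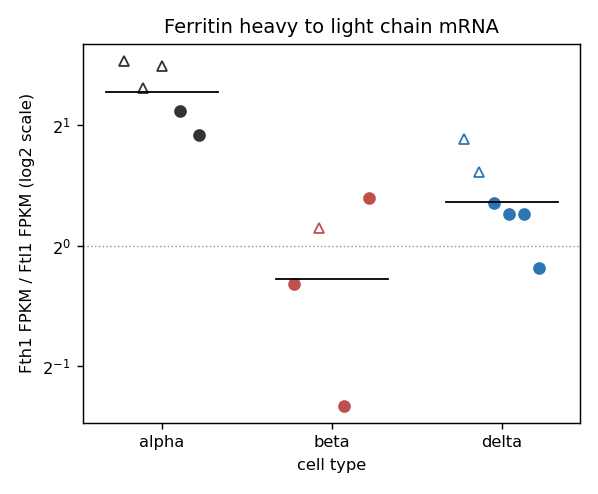
Ratio of Fth1 to Ftl1 FPKM in each of the 15 samples (vertical axis, logarithmic), with a line at the geometric mean of each cell type, open triangles for the libraries with the higher ribosomal protein sum and filled circles for the rest. The alpha cell samples lie between 1.89 and 2.88, above all beta cell (0.399 to 1.31) and delta cell samples (0.880 to 1.84).

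Hfe mRNA was found in every sample. Hfe (chromosome 13, 23702034 to 23710854, minus strand, 4 annotated transcripts) was at 12.4, 18.1, 10.8, 5.20 and 8.88 FPKM in alpha 1 to 5. In beta 1 to 4 it was at 5.71, 16.2, 0.624 and 3.42 FPKM. Delta cell samples ran from 4.93 FPKM through a median of 8.51 FPKM to 13.1 FPKM. All groups overlapped, and the spread was widest among beta cells, again between beta 2 and beta 3.

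The mean of Hfe was 11.1 ± 4.74 FPKM in alpha cells (SD, n = 5), 6.49 ± 6.80 FPKM in beta cells (n = 4) and 8.70 ± 3.55 FPKM in delta cells (n = 6). Beta cells differed from alpha cells by -1.08 (SE 0.551, 95% interval -2.25 to 0.09, limma adjusted p = 0.260), and without beta 2 by -1.64 (adjusted p = 0.0430). Delta cells differed from alpha cells by -0.31 (SE 0.498, limma adjusted p = 0.831) and from beta cells by 0.77 (SE 0.531, adjusted p = 0.371). The latter was 1.33 without beta 2 (limma adjusted p = 0.0644) and 0.19 without beta 3 (adjusted p = 0.827).

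Hepcidin mRNA was not detected in alpha or beta cells. Hamp (chromosome 7, 30942368 to 30944032, minus strand, 1 annotated transcript) was listed at 0 in 14 of 15 samples and at 1.501 FPKM in delta 1, which corresponds to about 3.3 reads. In the fit without a filter on low values, over 23792 genes, the delta cell comparisons gave limma adjusted p = 0.671 against alpha cells and 0.600 against beta cells. A transcript that short can hold few reads, so that low expression was not detectable at this depth. The second mouse hepcidin gene, Hamp2, was listed at 0 in all samples except delta 3 (0.130 FPKM).

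Counted together, 0 of 6 tested genes passed between beta and alpha cells (limma, 2 at an unadjusted p under 0.05), where 7.66% of all genes passed and 22.9% had an unadjusted p under 0.05. With Slc40a1 set aside, 0 of 5 passed between delta and alpha cells (0 at an unadjusted p under 0.05), against 6.81% of all genes (16.7% unadjusted). Between delta and beta cells 0 of 5 passed (1 at an unadjusted p under 0.05), against 14.7% of all genes (28.4% unadjusted). No other tool was run, since the values are not counts. The comparisons share samples of each cell type and are not independent.

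The rest of the iron pathway gave 71 genes in 4 lists. Of 19 genes of iron uptake, reduction and export, 9 were tested. Slc48a1, which moves haem out of lysosomes, had means of 18.4, 5.60 and 20.004 FPKM in alpha, beta and delta cells and fell from alpha to beta cells (log2 difference -1.86, SE 0.480, limma adjusted p = 0.0271) and higher in delta than in beta cells (1.99, SE 0.462, adjusted p = 0.00825), with samples that overlapped. The first of these calls was lost when only alpha and beta cells were fitted (limma adjusted p = 0.116) and without alpha 1, alpha 2, beta 1, beta 3 or beta 4 (adjusted p of 0.0574 to 0.10). Slc46a1, a folate transporter that also carries haem, was higher in delta cells (2.82 FPKM) than in beta cells (0.416 FPKM) by 1.32 (SE 0.363, limma adjusted p = 0.0220), with adjusted p = 0.0842 under quantile normalization, 0.0520 without beta 3 and 0.0623 without beta 4. Steap1, of the STEAP family of metal reductases, was higher in delta cells (2.41 FPKM) than in alpha cells (0.316 FPKM) by 1.26 (SE 0.349, limma adjusted p = 0.0378) and than in beta cells (0.293 FPKM) by 1.28 (SE 0.372, adjusted p = 0.0297). Steap1 too entered the tests only through its delta cell mean, and in the fit with no filter the limma adjusted p was 0.0418 against alpha cells and 0.0348 against beta cells. Both Steap1 calls were lost under quantile normalization (limma adjusted p of 0.124 and 0.0945) and with the replicate number as a block. The first was also lost with delta and alpha cells alone (limma adjusted p = 0.0655) and without alpha 1, alpha 3, alpha 4, delta 1, delta 3, delta 4 or delta 6 (0.0526 to 0.0966). The second was also lost without beta 1, beta 3, delta 1, delta 3 or delta 6 (limma adjusted p of 0.0516 to 0.0903). In this list 1 gene was lower between beta and alpha cells, where 4.82% of all genes were lower and 2.84% higher. Between delta and alpha cells 1 gene was higher (5.33% of all genes higher, 1.48% lower), and between delta and beta cells 3 were higher (11.7% higher, 2.99% lower). The list had median differences of -0.15, 0.34 and 0.39 against -0.13, 0.13 and 0.30 over all genes.

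Of 17 genes that control hepcidin, 10 were tested, and 1 of them was Bmp6, the ligand by which liver endothelium signals iron stores to hepatocytes. Bmp6 was at 2.41 to 9.41 FPKM in the 6 delta cell samples, at most 0.126 FPKM in alpha cells and at most 0.00618 FPKM in beta cells, so that the groups did not overlap, as for 4.97% of all genes with delta cells above alpha cells and 12.3% with delta cells above beta cells. Its log2 difference was 2.60 between delta and alpha cells (SE 0.286, limma adjusted p = 1.69e-05) and 2.65 between delta and beta cells (SE 0.305, adjusted p = 2.36e-05), and it passed under each of 8 settings and with each single library left out. Bmp6 entered the tests only through its delta cell mean, and in the fit with no filter the limma adjusted p was 3.8e-05 against alpha cells and 4.39e-05 against beta cells. The summed level of 7 endothelial markers was 1.47 to 3.45 FPKM in alpha cells, 0.621 to 3.82 FPKM in beta cells and 3.24 to 6.17 FPKM in delta cells. Most of it was Esam (means of 2.16, 1.71 and 3.79 FPKM). Each of the 7 had its highest mean in delta cells, among them Pecam1 (0.0207, 0.0225 and 0.322 FPKM) and the lowest there, Cdh5 (0, 0.00167 and 0.0188 FPKM). The part of endothelial cells in the Bmp6 values was not tested. Smad1, a transcription factor that BMP receptors activate, was higher in delta cells (15.1 FPKM) than in beta cells (4.29 FPKM) by 1.60 (SE 0.407, limma adjusted p = 0.0140). Smad7, an inhibitor of that pathway, was higher in delta cells (2.40 FPKM) than in beta cells (0.550 FPKM) by 1.14 (SE 0.344, limma adjusted p = 0.0350). That Smad7 call was lost with size factors (limma adjusted p = 0.0542), with no filter (0.0546), with quantile normalization (0.155) and with the replicate number as a block. It was also lost without beta 1, beta 2, beta 3 or any of delta 1 to delta 5 (limma adjusted p of 0.0511 to 0.0828). This list had 0 calls between beta and alpha cells (limma, 1 at an unadjusted p under 0.05), where 7.66% of all genes were called. Of its 10 tested genes, 1 was higher between delta and alpha cells and 3 between delta and beta cells, against 5.33% and 11.7% of all genes. The medians were -0.01, 0.11 and 0.28.

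**Figure D4:**
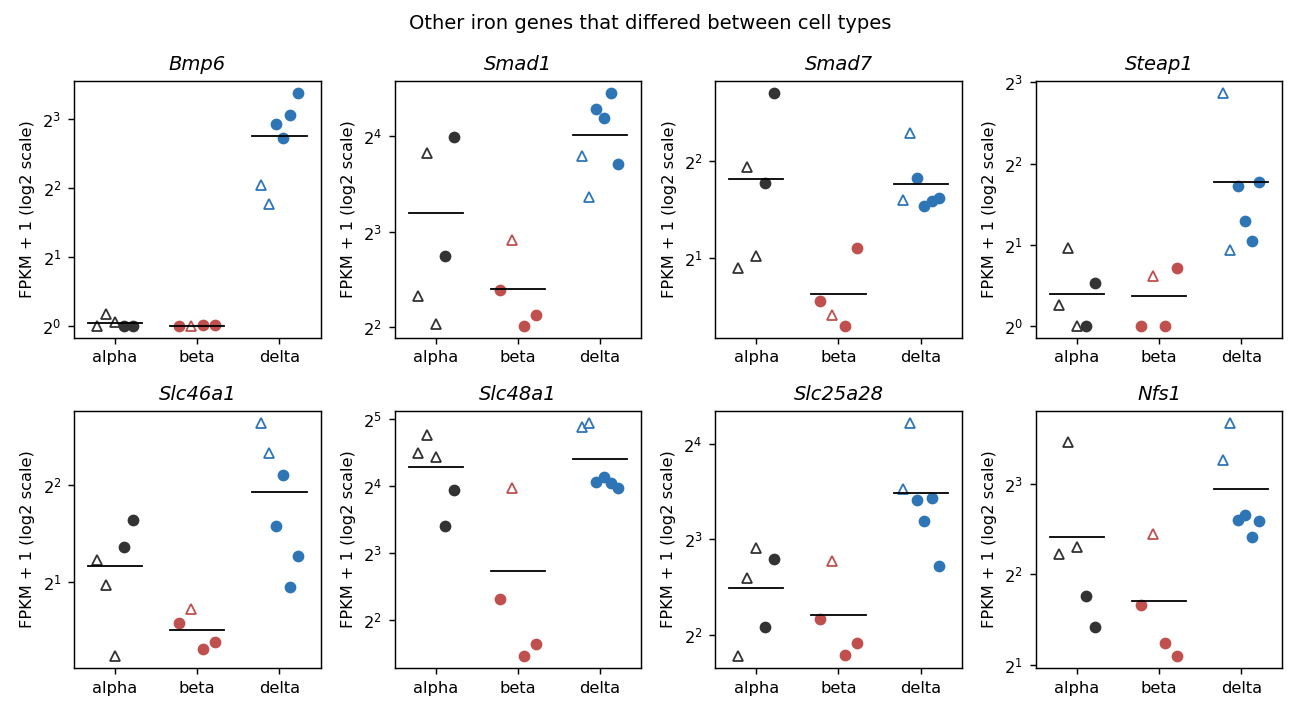
FPKM + 1 of the other iron genes that passed in at least 1 comparison, by sample (vertical axes logarithmic), with a line at each cell type mean, open triangles for the libraries with the higher ribosomal protein sum and filled circles for the rest. Bmp6 is at 2.41 to 9.41 FPKM in delta cells and at most 0.126 FPKM elsewhere, while for Slc48a1 the groups overlap.

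Of 27 genes of mitochondrial iron, iron-sulphur clusters and haem, 25 were tested, and 0 passed between beta and alpha cells or between delta and alpha cells (limma, 3 and 1 at an unadjusted p under 0.05). Between delta and beta cells Slc25a28, a carrier that brings iron into mitochondria, was higher in delta cells (10.2 against 3.64 FPKM) by 1.25 (SE 0.341, limma adjusted p = 0.0209), a call lost without beta 1, beta 3 or beta 4 (0.0517 to 0.0682). Nfs1, the cysteine desulphurase of cluster assembly, was also higher there (6.68 against 2.27 FPKM) by 1.26 (SE 0.407, limma adjusted p = 0.0488), but lost the call under 4 of 8 settings and without any single library other than alpha 2, alpha 5 or beta 2 (adjusted p of 0.0531 to 0.153). Over all genes 11.7% were higher in delta than in beta cells, which is near the share of those 2 of 25, and over all genes 7.66% and 6.81% passed in the other comparisons. The median differences of this list were -0.34, 0.19 and 0.38. Of 8 genes of iron storage, chaperones and sensing, 6 were tested and 0 passed in any comparison (limma, 2, 0 and 2 at an unadjusted p under 0.05), against 7.66%, 6.81% and 14.7% of all genes, with medians of -0.56, -0.47 and -0.01.

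**Figure D5:**
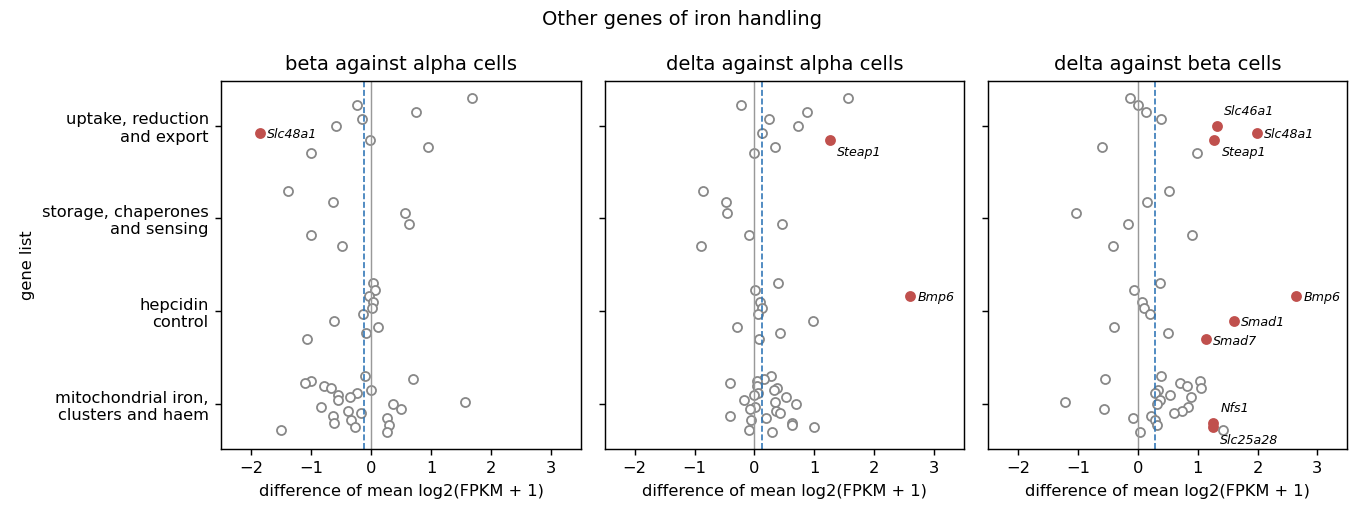
Log2 differences (horizontal axes, log2(FPKM + 1) scale) of the tested genes of the 4 other iron lists (vertical axis, 1 point per gene) in the 3 comparisons, with named filled red points for genes at adjusted p under 0.05 and a dashed blue line at the median of all genes tested. Bmp6 has the largest difference in both delta cell comparisons, at 2.60 and 2.65.

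The iron regulatory proteins that bind the hairpins are encoded by Ireb2 and Aco1, which, with Heph, are named here after their values were seen. Ireb2 had means of 11.8, 20.05 and 7.80 FPKM in alpha, beta and delta cells. Aco1 had means of 11.8, 1.93 and 3.34 FPKM, and the alpha cell mean rested on alpha 3 (42.8 FPKM). Neither passed in any comparison (limma adjusted p of 0.139 to 0.651 for Ireb2 and 0.161 to 0.578 for Aco1). Hephaestin (Heph), a ferroxidase that partners ferroportin in the gut, was listed at 0 in all samples.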

How the data were processed

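RNA of sorted cells was amplified (NuGEN Ovation), fragmented and sequenced as single 50-base reads. The authors aligned reads to GRCm38 with TopHat (TopHat2 2.0.8 in the submitters' processing notes, another version in the study's methods) and deposited gene-level FPKM made by Cufflinks 2.2.1. The annotation release and the handling of multiply mapped reads are not given in the sources used here. The authors' own tests used edgeR on raw counts, which were not used here.

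FPKM were tested as log2(FPKM + 1) with limma 3.58.1 (eBayes with trend) in R 4.3.3, 1 fit over all 15 samples and 14405 genes with a mean above 1 FPKM in at least 1 cell type, Benjamini-Hochberg adjustment over all of them, called at an adjusted p under 0.05. The fit was tested on simulated data. Beta cells were gated in the Glu-Venus sorts that also gave alpha cells, and the sources used here tie no single samples to each other or to separate mice, so p-values measure the spread between these samples. The genes, lists and settings were chosen with earlier results of these data known. Named were the 7 genes, up to 4 called genes per iron list by size of difference, the 5 genes most like Slc40a1, cell type markers, and overlapping genes and copies. The alternatives were a pseudocount of 0.1, no filter or a mean above 5 FPKM, the replicate block, median-ratio size factors, quantile normalization, the library set as a covariate (split at a ribosomal sum of 50000 FPKM), 2 cell types alone, the ratio of means and each library left out. The same settings for the other iron genes, and the size factors given as values, were added after seeing the data. Reads were derived from the smallest steps between FPKM of single-transcript genes, and they cover counting error only. Sequences were read from GENCODE M21 (GRCm38) with Python 3.11.15. One marker result is not reported here.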

Additional observations from a re-analysis of the deposited data

Results flagged for a closer look

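In 19 groups of 4 to 6 samples with values of these genes, 2 samples stood apart from the rest of their group by more than Dixon's limit, which chance alone passes in about 1 in 20 groups of continuous values. Ftl1 was at 1043 FPKM in beta 2 against 288 to 312 FPKM in the other 3 beta cell samples. The same library had the highest size factor and the highest beta cell values of Slc40a1, Tfrc, Fth1 and Hfe. Hamp was at 1.501 FPKM in delta 1 and at 0 in the other 5 delta cell samples, a group in which any value above 0 passes the limit.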

How the results depend on the processing

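Slc40a1 was lower in delta cells in every setting run, which is a description, since that low level chose the gene. On the log2 scale Slc40a1 in delta cells differed from alpha cells by -4.40 with a pseudocount of 0.1 and -4.70 as a ratio of means. From beta cells it differed by -3.66 and -4.25. Several other differences depended on the scaling of libraries. Size factors moved the median of all genes by 0.13, -0.12 and -0.28 between beta and alpha, delta and alpha, and delta and beta cells, and quantile normalization by 0.11, -0.17 and -0.30. With these shifts included, Ftl1 between beta and alpha cells was 1.20 with size factors, 1.37 with quantile normalization and 1.19 with the library set as covariate, and Tfrc between delta and beta cells -1.98, -1.82 and -1.71, all past the limma threshold. Ftl1 passed between delta and alpha cells with quantile normalization (0.88) and between delta and beta cells with size factors (-0.84). Signs turned for Fth1 with quantile normalization (0.014 between beta and alpha, 0.13 between delta and alpha cells) and size factors (-0.21 between delta and beta cells), for Slc11a2 between delta and beta cells with size factors (-0.25) and quantile normalization (-0.35), and for Tfrc (0.013) and Hfe (0.0056) between delta and alpha cells with the library set. The cause was not tested.

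With 1 library left out, beta against alpha cell differences ran from -1.14 to -0.34 for Slc40a1, 0.71 to 2.11 for Tfrc, 0.50 to 1.11 for Ftl1, -1.18 to -0.080 for Fth1 and -1.64 to -0.50 for Hfe. Delta against beta cell differences ran from -2.42 to -1.02 for Tfrc, -0.11 to 0.28 for Slc11a2, -0.30 to 0.80 for Fth1 and -0.59 to 0.029 for Ftl1. Of the 6 tested genes, 1 passed between beta and alpha cells with size factors, quantile normalization or the library set, and 0 to 2 with 1 library left out (2 without beta 2, 1 without beta 3). Of the 5 tested against delta cells, 1 passed between delta and alpha cells with quantile normalization, and between delta and beta cells 2 with size factors, 1 with quantile normalization, 1 with the library set and 0 to 1 with 1 library left out (1 without beta 3).

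Over all genes, 1104 were called between beta and alpha cells (37.0% of them higher), 2078 with size factors (52.7%), 1970 with quantile normalization (47.6%), 407 with those cell types alone, and 651 to 1698 with 1 library left out (702 without alpha 2, 696 without beta 1, 651 without beta 4, 1698 without beta 2), and the share higher was 20.8% without beta 2 and 60.1% without beta 3. Between delta and alpha cells 981 were called (78.3% higher; 67.8% with size factors, 56.8% with quantile normalization), and 518 with a mean above 5 FPKM. Between delta and beta cells 2114 were called (79.6% higher; 51.5% and 50.9%), and 1319 with a mean above 5 FPKM. No source used here ties samples of the same replicate number, although alpha and beta cells came from 1 kind of mouse. Over 13 pairs the correlation of their deviations was -0.152 to 0.281, above 0.1 in 5 (among them all 3 pairs of replicate 2), so the numbers were not taken to pair the samples. With the replicate block 1227, 831 and 2001 genes were called in the 3 comparisons, Steap1 (adjusted p of 0.132 and 0.0815 against alpha and beta cells) and Smad7 (0.0814) not among them in limma. About 3.3 reads lay behind Hamp in delta 1, and about 9.2 to 77.7 behind Slc40a1 in the delta cell libraries whose depth could be read. The part of depth in these values was not tested.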

Other observations

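Some iron genes outside the named rule had 1 library far from the rest, and were picked after their values were seen. Hmox1, the inducible haem oxygenase that frees iron from haem, was at 24.8 FPKM in beta 4, where Tfrc was at 74.1 FPKM. In beta 2, where Tfrc was highest (98.6 FPKM), Hmox1 was at 2.63 FPKM. The means of Hmox1 were 0.444, 7.15 and 0.719 FPKM in alpha, beta and delta cells. Its beta cell mean, through which alone it reached the tests, rested on beta 4. Transferrin (Tf) was at 0.0545 to 7.10 FPKM in alpha cells, at 0.0288 to 0.214 FPKM in beta cells and at 0.293 to 2.49 FPKM in delta cells.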
